A study of Mus musculus with 64 samples.

Results

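KPC1 is a mouse pancreatic tumor cell line that was sequenced beside 7 clonal tumor lines, E, H, K, M, N, T and V. It was described here from its 4 mono-culture libraries, taken by their labels from 64 libraries in all, and set against the 28 mono-culture libraries of the clones, 4 for each, with every clone averaged before the clones were compared with KPC1. By the paper, the clones were derived from a polyclonal line of a KPC tumor, a mouse model of pancreatic cancer whose alleles include Trp53 R172H and Cre under the Pdx1 promoter, so that recombination takes place in cells of the pancreatic lineage. The labels give the same strain, C57BL/6 mixed, for every line. Each clone is a single subclone of that line, so a clone and its 4 libraries stand for 1 isolate and not for a class of tumors. The origin of KPC1, whether it is clonal, and how it is related to the clones are not given in the sources used here. The paper places E, H and V in its group 1 and K, M, N and T in its group 2, from their metabolites, and places KPC1 in neither. All 32 mono-cultures were grown without fibroblasts and received no drug, and the other 32 libraries, from the same 8 lines after 48 h of coculture with fibroblasts and a sort for green fluorescence, were used only to see whether a difference recurred. Whether the mono-cultures were sorted is not stated. The labels also do not say whether the 4 libraries of a line came from separate cultures, so p-values over libraries measure only the spread between those libraries.

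Pancreatic ductal tumors of KPC mice arise from cells that switch on Pdx1 during development, and their lines differ in how much of the epithelial program, marked by E-cadherin and keratins, they keep. Such cells depend on glycolysis and on amino acid supply. When amino acids run short or the endoplasmic reticulum is loaded, kinases phosphorylate eIF2alpha, translation of Atf4 rises, and Atf4 switches on genes for the synthesis and uptake of amino acids, a program called the integrated stress response (ISR).

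The KPC1 libraries held 15576720 to 17038294 counted reads and the clone libraries 11661214 to 21333683. Levels are given as CPM, which scale the counts of each library to a common total after TMM normalization and do not correct for gene length. Correlations among the KPC1 libraries were 0.981 to 0.988, and no pair of them agreed within counting noise (chi-square per gene 8.77 to 41.3). The sample numbers in the labels run in 2 series, 1 to 43 and 44 to 64, which are not explained there. KPC1 replicate 3 and all libraries of E, N and V bear numbers of the first series, the other 3 KPC1 libraries and all 4 of K bear numbers of the second, and the remaining lines are divided between them. Epithelial keratins were abundant in KPC1, with 701 CPM of Krt8 and 551 CPM of Krt19, and the E-cadherin gene Cdh1 was at 148 CPM. Krt8 was nevertheless just below all clone means, which were 711.5 to 1295 CPM, although its libraries overlapped those of the clones. Of 6 epithelial markers, 4 exceeded 1 CPM in KPC1, while Epcam had 2 counts over its 4 libraries and no clone mean above 0.371 CPM. The markers of other cells were mostly near 0. Dcn had 4 counts in KPC1 and Lum, Thy1 and Postn had 0 (fibroblasts), although Pdgfra was at 22.8 CPM and Col3a1 at 20.7. The sum of 10 fibroblast markers was 48.8 to 87.0 CPM in the KPC1 libraries and 56.9 to 206 CPM in the clone means. Leukocyte markers were represented by Cd68 alone, at 10.4 CPM, with 0 counts of Cd3e and Adgre1 and 4 of Ptprc. The sums of 5 leukocyte markers were 4.96 to 13.9 CPM in KPC1 and 3.97 to 18.4 CPM in the clones.

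To ask which clone KPC1 resembled, the mean log2 CPM of each line was correlated over 13624 genes, which are not independent replicates, and KPC1 was tested against each clone in turn with edgeR's quasi-likelihood test on the 32 libraries. Clone H was the most similar. Its correlation with KPC1 was 0.958 (Spearman's correlation 0.972), the root mean square difference was 0.905 on the log2 scale, and 1741 genes (12.8% of those tested) passed an adjusted p of 0.1 with at least a 2-fold difference, 976 higher and 765 lower in KPC1. Clones N and V came next and changed places with the measure. The correlation was 0.932 for N and 0.936 for V, and the genes called were 2289 (16.8%) for N and 2525 (18.5%) for V. T had 2932 genes (21.5%, r = 0.918) and E had 3033 (22.3%, r = 0.902). M, with 3999 genes (29.4%, r = 0.892), and K, with 4141 (30.4%, r = 0.888), were the farthest. These 7 comparisons share the KPC1 libraries. Between clones the correlation lay between 0.873, for E and V, and 0.959, for E and T, so that KPC1 and H were about as alike as the closest clones. Within the second series of sample numbers H was again nearest, at 0.948. That series holds 3 libraries of KPC1, 4 of K, 2 of T and only 1 each of H and M. Within the first series, with KPC1 replicate 3 alone, H was nearest at 0.955, followed by N at 0.938.

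**Figure D1:**
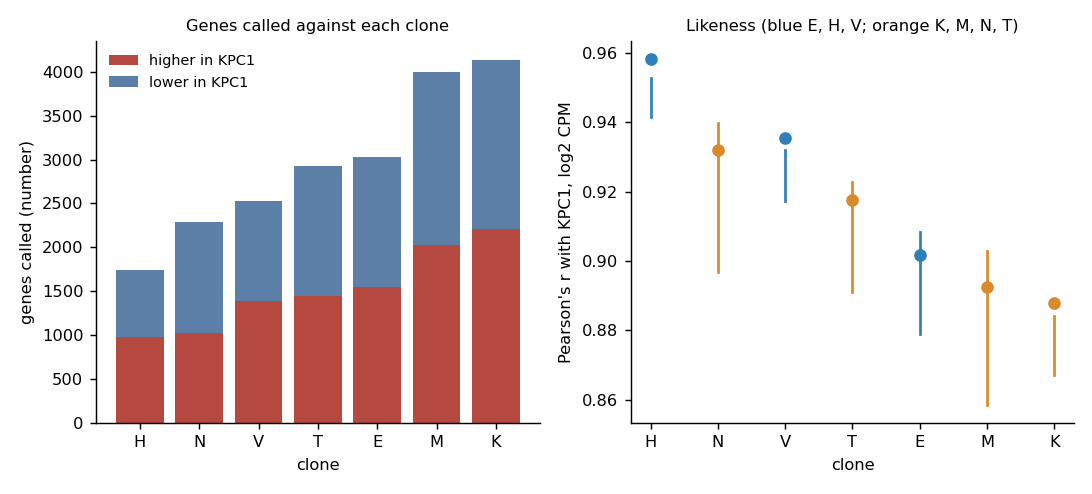
Left, number of genes called between KPC1 and each clone by edgeR at an adjusted p under 0.1 and 2-fold or more, higher (red) and lower (blue) in KPC1. Right, Pearson's r of log2 CPM over 13624 genes between KPC1 and each clone, where points are line means, which average out library noise and so may lie above the bars, and bars span single pairs of libraries. H has the fewest genes called, 1741, and the highest r, 0.958.

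Gene by gene, the resemblance was spread over several clones. H was the clone nearest to KPC1 in 22.1% of the genes, N in 20.2%, V in 16.3%, and K and M in 9.34% and 9%. The nearest clones thus belong to both metabolic groups. In 712 genes the means of E, H and V lay all on a single side of the means of K, M, N and T, and in these KPC1 lay within or beyond group 1 in 469 (65.9%) and within or beyond group 2 in 163 (22.9%), the rest falling in the gap between the groups. In 3115 genes that parted H and V from the other 5 clones, KPC1 was with H and V in 45% and with the others in 30.6%.

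KPC1 was nevertheless set apart from H in named genes, chosen after their values were seen as the largest differences. Cxcl12, a chemokine that draws leukocytes through Cxcr4, had a mean of 104 CPM (SD 44.5, n = 4) in KPC1 and 0.365 (SD 0.128, n = 4) in H. Cd34, a surface sialomucin, was at 69.3 CPM against 0.308, and Myh10, a nonmuscle myosin heavy chain, at 116 CPM against 1.60. Lower in KPC1 were Mmp2, a gelatinase, at 4.22 CPM (SD 0.921) against 76.0 (SD 8.56), the calpain-like gene Capn6 at 0.273 against 21.9, and Inhbb, the activin B subunit, at 5.40 against 47.9. In none of these did KPC1 lie outside all the clones, so at least 1 other clone had a library in its range or beyond it.

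To find where KPC1 left the range of the clones, a gene was counted when all 4 KPC1 libraries lay above, or all below, all 28 clone libraries. This held for 355 genes above (2.61% of 13624) and 261 below (1.92%), 616 in all (4.52%). The same count for each clone against the other 7 lines gave 230 for T, 417 for E, 432 for H, 519 for N, 742 for V, 967 for M and 1335 for K. KPC1 was thus neither the most nor the least separate of the 8 lines. By line means, KPC1 was the highest line in 17.4% of the genes and the lowest in 14.5%, where 12.5% would be an even share among 8 lines. K had more of both (17.6% highest, 18.5% lowest), M had 14.8% of each, and T had the fewest (6.97% and 7.19%). The counts rose to 552 above and 517 below when KPC1 replicate 3, its only library of the first number series, was left out, and to 548 above without replicate 4.

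When each line was summed to a single sample, which treats KPC1 as a draw that varies like the clones, edgeR's quasi-likelihood test called 0 of 16479 genes at an adjusted p of 0.1, and 890 (5.40%) had an unadjusted p under 0.05, 398 higher (2.42%) and 492 lower (2.99%). DESeq2 on the same 8 sums called 101 genes, 13 higher and 88 lower in KPC1, and limma on the authors' RPKM values called 23 or 14, depending on the pseudocount. Of the DESeq2 calls, 12 lay above and 52 below all clone libraries. With libraries as samples, where the spread is that within lines, 1251 genes were higher (9.18%) and 902 lower (6.62%) in KPC1 than in the mean of the clones at an adjusted p of 0.1 and 2-fold (edgeR). The last test says that KPC1 differs from the average of these 7 clones, and not that it differs from clones in general. Each difference given below as a value ± standard error is on the log2 scale, KPC1 minus the mean of the clones, from this test, and the largest edgeR adjusted p among them is 5.53e-05, for mt-Nd2.

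The genes outside the clones with the smallest p in the test on line sums were, on the high side, Cln8, Paip2b, Nop14, Eif1ad, Pvt1, Trappc4, Gadd45g, Agpat5, Snhg5 and Sptb, none of which passed adjustment (edgeR adjusted p = 0.804 for each). Paip2b, which restrains translation by binding the poly(A)-binding protein, had 149, 154, 135 and 148 CPM in the 4 KPC1 libraries and clone means of 53.4 to 85.7, a difference of 1.12 ± 0.06. Eif1ad had 104, 116, 99.7 and 89.4 CPM against clone means of 29.1 to 56.2. The highest clone library was at 96 CPM for Paip2b and 67.9 for Eif1ad. Gadd45g, a stress-induced growth regulator, had 40.4, 39.9, 36.8 and 32.9 CPM against 9.41 to 19.7, a difference of 1.68 ± 0.15. Sptb, the beta chain of erythroid spectrin, had 16.2, 11.7, 15.8 and 13.6 CPM and clone means of 1.85 to 5.16 (2.34 ± 0.19). By the rule that chose them, the lowest KPC1 library exceeded the highest clone library in all of them. Pvt1, a long noncoding RNA gene next to Myc on chromosome 15, was at 37, 40.03, 37.8 and 36.5 CPM against 11.4 to 23 (1.24 ± 0.09). Its neighbor Myc had 455, 559.5, 348 and 382 CPM with clone means of 167 to 382, highest in N. Myc in KPC1 therefore exceeded every clone mean but not every clone library, the highest of which was at 422 CPM.

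On the low side the rule gave Dnajc18, Dync2li1, Trip11, Med16, Lace1, Dnajc12, Rdh10, Top3b, Hipk3 and Cep164, again none past adjustment in edgeR (adjusted p = 0.804 for each). Dnajc18, a J-domain co-chaperone, had 17.8, 13.5, 22.2 and 17.2 CPM in KPC1 and clone means of 40.5 to 56.9 (-1.46 ± 0.10). Dync2li1, a chain of the dynein that carries cargo back along the cilium, had 7.97, 8.88, 10.5 and 9.43 CPM against 22.7 to 31.3 (-1.46 ± 0.12). Both were among the DESeq2 calls on line sums, with adjusted p = 4.74e-06 for Dnajc18 and 2.84e-06 for Dync2li1. Med16, a subunit of the Mediator complex, had 6.82, 5.70, 15.7 and 8.48 CPM against 23.2 to 46.7, and replicate 3 was the highest of the KPC1 libraries. Rdh10, which oxidizes retinol on the way to retinoic acid, had 118, 124, 116 and 126 CPM against 237 to 430.3 (-1.44 ± 0.15). Cep164, a protein of the distal appendages of centrioles, had 23.4, 29.4, 29.2 and 24.1 CPM against 41.5 to 53.3, and it was also below all clone libraries in coculture.

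Larger differences were seen in other genes outside the clones, which were chosen after their values were seen. Slc38a1, a glutamine carrier, had 422, 473, 393 and 276 CPM in KPC1 and clone means of 65.5 to 211 (1.88 ± 0.12). Il33, an alarmin cytokine, had 220.5, 103, 75.8 and 116 CPM with clone means of 0.511 to 36.3 (4.63 ± 0.25), and its nearest clone was N. Lsr, a protein of tricellular junctions, had 20.6, 19.1, 14.3 and 19.8 CPM against 0.269 to 4.73 (3.92 ± 0.13). By the choice of genes outside the clones, the 4 KPC1 libraries stood apart from all clones in each. Ripk3, the kinase that starts necroptosis, had 19, 17.7, 19.9 and 12.7 CPM, and E was the nearest clone at 10.3 CPM while T was at 0.136 and V at 0.0253. Gch1, the first enzyme of tetrahydrobiopterin synthesis, had 110.5, 109, 70.1 and 98.3 CPM, followed by H at 57.5. Sema3a, a repulsive guidance ligand, had 102, 79.2, 53.6 and 67.2 CPM against 7.78 to 33.5, and Dhh, a hedgehog ligand, 25.9, 20.6, 18.7 and 21.3 CPM against 0.267 to 12.3.

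Among genes below the clones, Btg2, an antiproliferative gene induced by p53, had 9.19, 7.62, 9.45 and 9.79 CPM against 21.9 to 201 (-2.67 ± 0.40). Kalrn, a guanine nucleotide exchange factor, had 11.6, 11.6, 11.7 and 12.7 CPM against 21.9 to 158 (-2.26 ± 0.16), with H nearest. Kalrn stayed below all clone libraries in coculture, where KPC1 was at 5.54 CPM and the clone means were 8.74 to 83.4.

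**Figure D2:**
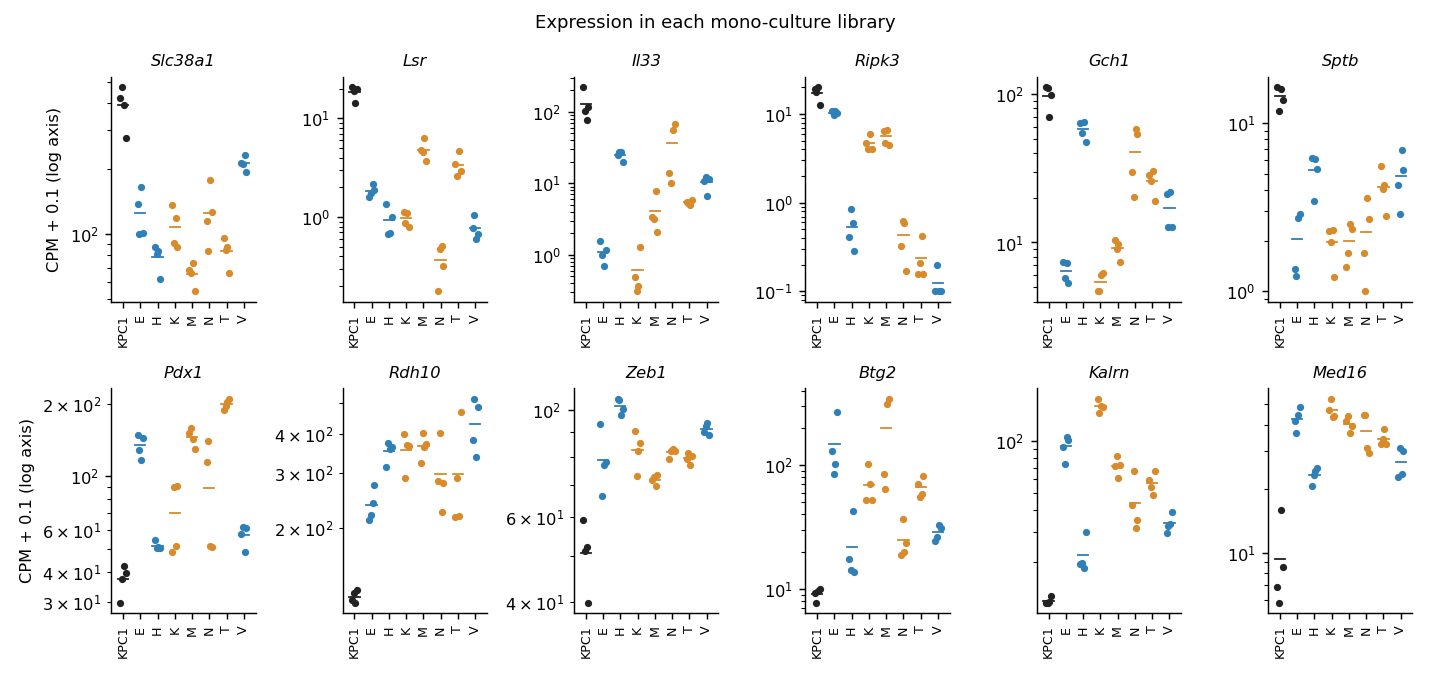
CPM plus 0.1 on log axes for 12 genes in each mono-culture library, with points for libraries, short lines for means of 4, and KPC1 in black, E, H and V in blue and K, M, N and T in orange. In the upper row all KPC1 libraries lie above every clone library, as for Slc38a1 (276 CPM at the lowest against 232 at the highest), and in the lower row all lie below.

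KPC1 lay above the clones in many genes of the ISR. Of 33 tested members, 17 (51.5%) had a KPC1 mean above all 7 clone means on the log2 scale and 0 below, where over all genes tested the shares were 17.4% above and 14.5% below. In the test on libraries 20 of the 33 were called higher and 0 lower (the shares over all genes were 9.18% and 6.62%), and the median difference was 1.10 on the log2 scale, against 0.0369 over all genes tested. The elevation was shared with a clone. In 14 of those 17 genes N was the highest clone. The level of the list was taken as the median log2 difference of its members from the mean of the 8 lines. Averaged over 4 libraries, it was 1.01 (SD 0.355, n = 4) in KPC1 and 1.04 (SD 0.327, n = 4) in N, less than their spread apart. T and E followed at 0.297 and 0.242, H, the clone most like KPC1 over all genes, was at -0.128, and V, K and M were at -0.477, -0.715 and -1. Only Pycr1 of the 33 lay outside all clone libraries. Without replicate 2 of every line, 8 of the 33 were above the clone means, and without clone N the count was 23.

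Atf4, the transcription factor of the program, had 987, 1136, 949.9 and 769 CPM in KPC1 and clone means of 217 to 921, a difference of 1.15 ± 0.14 (edgeR adjusted p = 3.62e-08). N, at 921 CPM, was within the KPC1 range and H, at 423, below it. Among the biosynthetic targets, Asns, which makes asparagine from aspartate and glutamine, had 552, 597, 472 and 294 CPM with clone means of 31.8 to 339 (2.08 ± 0.21). Aldh18a1 and Pycr1, the first and last steps from glutamate to proline, had 435, 476, 307 and 231 CPM against 30.3 to 204 and 41.1, 44.9, 39.6 and 26.6 CPM against 5.64 to 21.5. KPC1 was highest in replicate 2 and lowest in replicate 4 for each of the 3 genes. In the serine pathway, Psph, which releases serine from phosphoserine, had 139, 148, 116 and 95.3 CPM against 15.4 to 92.1, and Shmt2, which passes its carbon to folate in mitochondria, 538, 569, 485 and 306 CPM against 86.4 to 466, with N at 466. Cth, the cystathionine-cleaving enzyme that yields cysteine, had 132, 161, 124 and 64.4 CPM against 6.98 to 72.4 (2.57 ± 0.22). Chac1, which degrades glutathione, was at 80.5 CPM on average against clone means of 3.03 to 49.9. The cystine carrier gene Slc7a11, at 340 CPM, was within the clones, since N was at 674. Of the kinases that phosphorylate eIF2alpha, Eif2ak4 had 42.5, 42.2, 36.4 and 38.1 CPM against 37.6 to 53 and Eif2ak1 and Eif2ak2 were also within the clone means, while Eif2ak3, the kinase of the endoplasmic reticulum, was at 42.1 CPM against 28.7 to 41.3.

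The 250 bases before the RefSeq start of each ISR gene were searched on both strands for TGATGNAA, the core of the element that Atf4 binds with a C/EBP partner. Of 30 tested ISR genes with a window in the RefSeq table (GRCm38.p6), 7 held it (23.3%), against 3.91% of 27025 genes with a window. It was in 4 of 15 genes in which KPC1 was above the clone means and in 3 of 15 of the others. As the list was chosen as genes of the Atf4 program, its share over that of all genes does not bear on KPC1. A match describes the letters only, and the absence of these letters says nothing about the factor. The windows of Asns (chr6:7693210-7693459, minus strand), Pycr1 (chr11:120643749-120643998, minus strand) and Chac1 (chr2:119350992-119351241, plus strand) are shown because they hold the element in genes that KPC1 expressed above every clone mean. Capitals mark the match, which begins 23 bases before the start in Asns and 103 in Pycr1, and lies on the opposite strand in Chac1, 193 bases before the start.
Asns: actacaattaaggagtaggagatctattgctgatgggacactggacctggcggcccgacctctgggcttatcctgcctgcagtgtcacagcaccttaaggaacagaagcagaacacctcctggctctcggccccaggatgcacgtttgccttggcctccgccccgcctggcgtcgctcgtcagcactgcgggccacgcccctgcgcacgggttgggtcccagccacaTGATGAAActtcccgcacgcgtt
Pycr1: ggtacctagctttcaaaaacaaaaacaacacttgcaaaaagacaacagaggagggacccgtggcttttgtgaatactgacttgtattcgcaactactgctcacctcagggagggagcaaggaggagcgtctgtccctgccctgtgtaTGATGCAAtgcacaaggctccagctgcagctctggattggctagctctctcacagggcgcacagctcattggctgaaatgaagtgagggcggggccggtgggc
Chac1: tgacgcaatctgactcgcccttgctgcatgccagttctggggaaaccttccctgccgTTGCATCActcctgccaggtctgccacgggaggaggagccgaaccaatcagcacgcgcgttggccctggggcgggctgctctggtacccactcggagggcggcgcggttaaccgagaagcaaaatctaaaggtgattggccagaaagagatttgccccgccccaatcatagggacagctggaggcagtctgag

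Genes that handle aspartate, asparagine and glutamine followed in part. Of 21 tested, which include Asns, 8 (38.1%) were above the clone means and 1, Glul, below, and 7 were called higher and 1 lower. Over all genes tested 17.4% were above, 14.5% below, 9.18% called higher and 6.62% called lower. Slc1a5, the main glutamine importer, had 137, 139.6, 94.5 and 88.8 CPM in KPC1 and clone means of 18.8 to 68.6 (1.37 ± 0.09), and all KPC1 libraries exceeded all clone libraries. Gfpt2, which uses glutamine to enter the hexosamine pathway, had 54.4, 50.6, 29.98 and 37.8 CPM against 0.085 to 25 (4.06 ± 0.18). Glul, glutamine synthetase, was at 57.4 CPM against 63.7 to 196. The level of the list was 0.254 in N, 0.223 in KPC1 and 0.196 in T, so KPC1 lay between these clones.

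In glycolysis, 11 of 25 tested genes (44%) were above the clone means and 0 below, 7 were called higher and 0 lower, and the median difference was 0.57. Shares over all genes were 17.4% above, 14.5% below, 9.18% called higher and 6.62% called lower. Aldoa, an aldolase, had 1479, 949.7, 859 and 1272 CPM in KPC1 and clone means of 377 to 743 (1.06 ± 0.15). Pfkp, a phosphofructokinase, had 94.3, 53.8, 34.2 and 68.4 CPM against 5.63 to 34.2 (2.50 ± 0.20), and Slc16a3, the lactate exporter Mct4, 16.7, 7.69, 4.87 and 14.2 CPM against 0.613 to 3.68 (2.88 ± 0.28). Replicate 1 was the highest KPC1 library in all 3. The level of the list was 0.535 in KPC1 and 0.388 in N, whose libraries overlapped, while the group 1 clones E, H and V were at 0.0221, -0.0751 and -0.294. No glycolytic gene was outside all clone libraries, and without replicate 1 of every line 7 of the 25 were above the clone means.

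Of 31 cell cycle genes, 14 (45.2%) were above the clone means, 0 below, and 14 were called higher and 0 lower. Among all genes tested 17.4% were above, 14.5% below, 9.18% called higher and 6.62% called lower. Bub1, a kinase of the spindle checkpoint, had 69.6, 67.4, 52.5 and 72 CPM with clone means of 2.03 to 50.01, and Aurka, a mitotic kinase, 62.8, 64.6, 51.8 and 55.2 CPM against 6.64 to 44.4. K, with the lowest clone mean in each, had few such transcripts. The level of the list was 0.872 in N, 0.743 in KPC1 and 0.724 in E, so KPC1 lay between these clones.

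Transcripts of the mitochondrial genome were low in KPC1. Of 11 tested, 6 had a KPC1 mean below all clone means and 0 above, all 11 differences were negative, and 1, mt-Nd6, was called lower at 2-fold, although with limma on the authors' RPKM its difference was 0.039. The median difference was -0.62. For all genes tested the shares were 14.5% below the clone means, 17.4% above and 6.62% called lower. mt-Nd2, a subunit of complex I, had 1918, 1473, 2148 and 2044 CPM in KPC1 with clone means of 2913 to 5411 (-0.90 ± 0.17), and mt-Nd5 had 1510.0, 1054, 1665 and 2058 CPM against 2228 to 3919.7 (-0.96 ± 0.18). The KPC1 and clone libraries overlapped in both. Nuclear copies of these genes share sequence with them, so values of single genes may include or lose reads. In the libraries as a whole mitochondrial transcripts were 2.32% to 3.85% of counts in KPC1 and 1.47% to 6.00% in the clones. Their part in other differences was not tested.

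Immune signaling genes lay on both sides of the clones. Of 22 chemokines and cytokines 7 (31.8%) were above and 2 below the clone means, and 11 were called higher and 1 lower. Over all genes 17.4% were above, 14.5% below, 9.18% called higher and 6.62% called lower. The level of the chemokine and cytokine list was 0.845 in KPC1 and 0.685 in N, whose libraries overlapped. Besides Il33, Csf2, the myeloid growth factor GM-CSF, had 5.53, 10.6, 4.35 and 9.79 CPM against 0.101 to 5.93 (2.51 ± 0.24). Of 32 interferon-stimulated genes 3 (9.38%) were above and 6 (18.8%) below, with 6 called higher and 7 lower. The share above was under the 17.4% over all genes and the share below was near the 14.5% over all genes. The counts outside the clone means therefore do not set these genes apart. Both called counts exceeded the shares over all genes, 9.18% higher and 6.62% lower. The fitted difference was positive in 8 of the 32, with a median of -0.618. The level of this list was -0.348 in KPC1 and lower in V, at -0.643. Xaf1, an apoptosis factor, had 0.45, 0.729, 1.86 and 1.25 CPM against 3.54 to 14.7 (-2.80 ± 0.34), and Gbp2, a guanylate-binding protein, 0.836, 1.13, 1.62 and 1.25 CPM against 3.32 to 20.1 (-2.37 ± 0.41). Replicate 3 was highest among the KPC1 libraries in both. H2-K1, a classical MHC class I heavy chain, went the other way, with 119.8, 126, 85.8 and 115 CPM against 6.44 to 90.6 (1.57 ± 0.12). Class I genes of this family share sequence, and reads may be divided between them.

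Of 14 pancreatic lineage factors tested, 3 were called higher and 4 lower in KPC1. The clone means were exceeded by 1 (7.14%), and 2 (14.3%), Pdx1 among them, were below the clone means and below all clone libraries. Shares over all genes were 17.4% above, 14.5% below, 9.18% called higher and 6.62% called lower. Pdx1, whose promoter drove Cre and which specifies the pancreas, had 29.7, 37.4, 42.4 and 39.5 CPM in KPC1 with clone means of 51.3 to 199 (-1.35 ± 0.19). H, at 51.3 CPM, and V, at 56.9, were nearest. In coculture Pdx1 was also below all clone means, at 19.9 CPM against 20.4 to 88.5. Sox9, a ductal factor, had 346, 337, 274 and 204 CPM against 85.7 to 237, above the clone means on average, while replicate 4 lay below the mean of N at 237. Gata6, a marker of the classical subtype, was within the clones at 5.59, 5.04, 6.26 and 4.66 CPM.

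Few genes of the epithelial and mesenchymal states lay outside the clone means. The epithelial list of 20 tested genes had 1 above and 1 below, with 4 called higher and 1 lower, and the mesenchymal list of 27 had 3 above and 3 below, with 8 called higher and 1 lower. The fitted difference was positive in 18 of the 27. Over all genes 17.4% were above the clone means, 14.5% below, 9.18% called higher and 6.62% called lower. In both lists the genes called higher exceeded that share. The epithelial gene below was Krt8, and the gene above was Spint1, a membrane inhibitor of serine proteases, named after its values were seen. It had 5.46, 5.9, 3.65 and 3.94 CPM in KPC1 and at most 1.65 CPM in a clone library, with 0 counts in 10 of the 28. Zeb1, a repressor of Cdh1, was below all clone libraries with 59.1, 51, 52.1 and 39.8 CPM against 71.7 to 102 (-0.72 ± 0.07), while its paralog Zeb2 had 149, 172, 108 and 103 CPM against 67.3 to 115. Cdh1 itself, at 157, 169, 131 and 133 CPM, fell inside clone means of 0.989 to 299.8. Vim, the intermediate filament of mesenchymal cells, was abundant in all lines and within the clones at 7287, 6051, 4913 and 5682 CPM. S100a4 was lower, with 364, 296, 404 and 804 CPM against 613 to 1478, and replicate 4 overlapped the clones. Of 46 matrix genes, 21 were called higher and 3 lower, but only 5 were above and 3 below the clone means, and H and V had list levels of 1.02 and 0.826, both above the 0.757 (SD 0.262, n = 4) of KPC1.

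Of 21 drivers and suppressors tested, 3 were above and 3 below the clone means (14.3% each) and none lay outside all clone libraries. Over all genes 17.4% were above and 14.5% below the clone means. Trp53, at 414, 424, 406 and 349 CPM, was just above the clone means of 256 to 366 (0.40 ± 0.06). Cdkn2a and Smad4, suppressors often lost in this cancer, were expressed, at 183, 179.7, 161 and 207 CPM for Cdkn2a and 133, 126, 124 and 109 CPM for Smad4, inside the clone means of 80.6 to 490.3 and 96.9 to 167. Stk11, the kinase that activates AMPK, had 92.8, 95.5, 94.8 and 86 CPM against 101 to 170.1 (-0.47 ± 0.06), and Arid1a, a chromatin remodeling subunit, 91.4, 91.3, 86 and 87.9 CPM against 105 to 163 (-0.51 ± 0.09), both below the clone means. These counts do not tell mutant from normal alleles. The Y-linked genes Ddx3y, Kdm5d, Uty and Eif2s3y were expressed in all 8 lines, with KPC1 means of 95.7, 25.1, 37.1 and 95.5 CPM, within the clone means for each. Xist, which silences an X chromosome in female cells, had 0 counts in KPC1 and at most 0.162 CPM as a clone mean.

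The remaining lists left the range of the clones to different degrees. Over all genes 17.4% were above the clone means, 14.5% below, 9.18% called higher and 6.62% called lower. Of 25 genes of MAPK output 4 (16%) were above and 3 (12%) below the clone means. For 17 genes of MHC class I presentation it was 2 and 2 (11.8% each), and for 32 Nrf2 and antioxidant genes 4 (12.5%) and 5 (15.6%). G6pdx, the first enzyme of the pentose phosphate pathway, nevertheless lay above all clone libraries, with 280.3, 270.1, 242 and 226 CPM against clone means of 86 to 198 (0.96 ± 0.06). Of 19 imprinted genes 2 (10.5%) were above and 0 below, but 9 were called higher, more than the share over all genes, and 0 lower. Grb10, an adaptor that restrains insulin signaling, had 345, 356, 316 and 234 CPM against 8.98 to 232 (1.78 ± 0.12), where V was the low clone. Of 11 basal-like subtype genes 3 (27.3%) were above and 1 below. Areg, a ligand of the EGF receptor, was above, with 78.9, 57.7, 27 and 25.5 CPM against 0.436 to 36.8 (3.89 ± 0.35), and N was nearest. Of 9 classical subtype genes 1 was above and 0 below.

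The genes outside the clones were spread unevenly over the chromosomes, a view taken after the values were seen. On chromosome 16, 26 of 428 tested genes (6.07%) were below all clone libraries and 1 was above, and on chromosome 10, 38 of 645 (5.89%) were below and 6 above, where 1.92% of all genes were below. Chromosome 14 had 23 of 458 (5.02%) above and 3 below, and chromosome 9 had 34 of 751 (4.53%) above and 16 below. Chromosome 15, which holds Myc and Pvt1, had 23 of 543 (4.24%) above and 3 below. Chromosome 19 had 19 of 462 (4.11%) above and 2 below. Of all genes 2.61% were above. The first 10 Mb of chromosome 16 held 45 tested genes, of which 9 (20%) were below. The median log2 difference of chromosome 16 from the mean of the 8 lines was -0.199 in KPC1, -0.205 in E and -0.250 in V, and between 0.103 and 0.166 in H, K, M, N and T. For chromosome 10 it was -0.191 in KPC1 and -0.271 in V. KPC1 was therefore low on chromosome 16 together with E and V and on chromosome 10 together with V, and H was not low on either. Its medians were above those of all clones on chromosomes 2, 4, 8 and 9 and below them on 17, by little, between 0.0633 and 0.0923 above the mean of the lines and at -0.0798 on 17. Single genes of a region share their position, and copy number was not measured here.

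**Figure D3:**
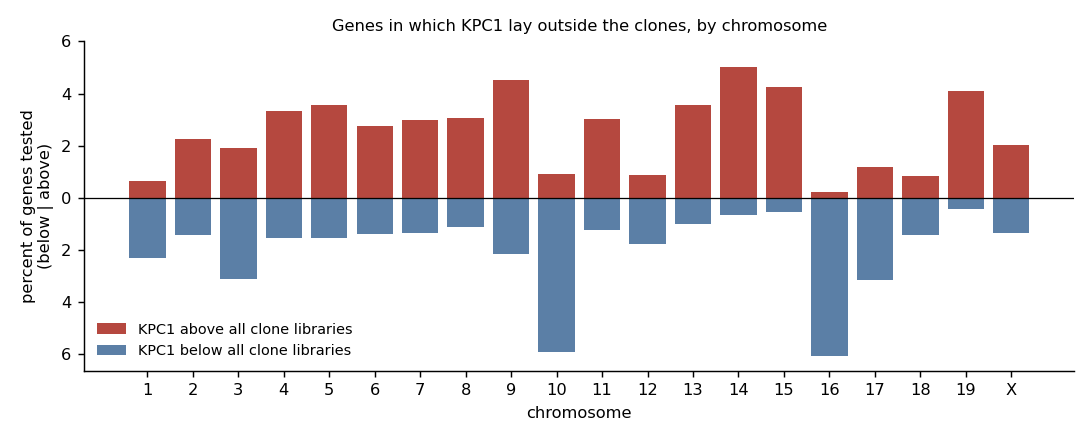
Percent of tested genes on each chromosome in which all 4 KPC1 mono-culture libraries lay above (red, up) or below (blue, down) all 28 clone libraries. Chromosomes 16 and 10 hold the largest shares below, 6.07% and 5.89%, and chromosome 14 the largest above, 5.02%.

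The coculture libraries, in which all 8 lines had been grown with fibroblasts, gave other samples of the same lines. There KPC1 was outside all clone libraries in 109 of 13458 genes (0.81%), 51 above (0.379%) and 58 below (0.431%), fewer than in mono-culture. Of the 355 genes above in mono-culture, 352 were tested in coculture. Of these, 19 (5.40%) were again outside all clone libraries, which is 37.3% of the 51 found in coculture, and 344 (97.7%) kept the sign of the difference. Of the 261 genes below, 258 were tested, 21 (8.14%) were again outside, 36.2% of the coculture genes, and 250 (96.9%) kept the sign. The share of all genes that kept the sign was not taken. The genes were chosen as extremes of the same lines, so the sign shares are not read as a result about them. In no gene was KPC1 outside on opposite sides. Lsr was among those that recurred, at 14.8 CPM in coculture against 0.0427 to 6.76 in the clones. On line sums edgeR called 0 of 16152 genes in coculture, with 352 (2.18%) at an unadjusted p under 0.05.

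The lists recurred to different degrees. In coculture 11 of the 33 ISR genes were above the clone means and 2 below, among them Asns at 778 CPM against 75.5 to 595 above, and 7 of the 25 glycolytic genes were above and 1 below. Over all genes 12.4% were above and 12.3% below. For cell cycle genes it was 4 above and 3 below, and for mitochondrially encoded genes 3 above and 0 below, so the lower mitochondrial transcripts did not recur. Within the first number series, with KPC1 replicate 3 against 6 clones, 16 ISR genes were above and 1 below (over all genes 17.2% above and 13.6% below), and 9 of the 11 mitochondrially encoded genes were below. Within the second, against H, K, M and T, 23 ISR genes were above and 2 below with the scaling over all 32 libraries, and 21 were above when the libraries were scaled within that series, and 3 mitochondrially encoded genes were below, although with fewer clones more genes of any kind fall outside (26.2% above and 23.3% below). In coculture the order of likeness also differed, T (r = 0.978), H (0.977), V (0.974) and N (0.969) being close together and K (0.924) again the farthest.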

How the data were processed

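The members, the gene lists and the rules for naming genes were chosen with earlier results of these data known. RNA of 8 lines was sequenced as polyadenylated, strand-specific, paired-end libraries. The authors deposited counts of reads for 39017 genes without normalization, and separately deposited RPKM values, reads scaled to gene length and library total, for 49585 genes. The submitters' processing notes name featureCounts, edgeR and the build mm10; their versions, the aligner and the annotation are not given in the sources used here. Positions come from GENCODE M21 (GRCm38), which holds 37607 of the identifiers, and promoters from RefSeq (GRCm38.p6).

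Columns were matched to samples by their titles, and every column was mapped. Counts were filtered with filterByExpr, scaled by TMM and tested with the quasi-likelihood test of edgeR 4.0.16 in R 4.3.3, with Benjamini-Hochberg adjustment at 0.1, on sums per line (KPC1 against 7 clones) and on 32 libraries (KPC1 against the equally weighted clone mean, and against each clone, at 2-fold). Log2 CPM used a prior count of 0.5, except that correlations in coculture used log2(CPM + 0.5). DESeq2 1.42.0 and limma 3.58.1 on log2 RPKM plus 1 or 0.1, other filters and normalizations, and leaving out replicates, clones or a number series were alternatives. The tests were tried on simulated data. At the summed depth of KPC1, 3 counts are 0.0464 CPM, and this floor covers counting error only.

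Genes named were up to 10 in each direction with the smallest p on line sums among those outside all clone libraries (at least 5 CPM, no predicted genes or pseudogenes), up to 3 per list that lay farthest outside the clone means, a fixed set of drivers and markers, and genes said to be chosen after their values were seen. A gene was called above or below the clone means on the log2 CPM scale. A list level is the median over its tested members of log2 CPM minus the mean of the 8 lines. It was taken in each library and averaged over the 4 libraries of a line. The shares of sample deviations that go with replicate numbers were checked. Deviations of same-numbered libraries of KPC1 and the clones correlated between -0.164 and 0.185, with a median of 0.051. Over all lines the median was 0.0525 for the same number and -0.0208 for different numbers. These values do not settle whether the numbers pair samples. A few genes are not reported here.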

Additional observations from a re-analysis of the deposited data

Results flagged for a closer look

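Of 198 groups of values examined, the 4 KPC1 libraries and the 7 clone means for each named gene, on the scale of log2(CPM + 0.5), 9 had a lowest or highest value far from the rest by Dixon's criterion, and chance alone flags about 1 group in 20. Among the KPC1 libraries, replicate 3 was high for Trip11, at 37.2 CPM, and low for Ccl25, at 5.80 CPM. Replicate 2 was low for Ccnb1, at 54.2 CPM, and high for Epcam, at 0.133 CPM, where the other libraries had 0 counts. Replicate 4 was high for Kalrn, at 12.7 CPM. Among the clone means, K was low for Ccnb1, a mitotic cyclin gene, at 5.07 CPM, V was low for the imprinted gene Grb10, at 8.98 CPM, E was low for Top3b, at 52.7 CPM, and T was high for Xist, at 0.162 CPM.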

How the results depend on the processing

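The test on line sums gave 0 genes at all leave-outs of a replicate, a KPC1 library or a clone, with RLE, with other filters, at a threshold of 0.05 and within either number series, but 101 with DESeq2 and 23 or 14 with limma on RPKM plus 1 or 0.1. On libraries, 2178 genes were higher without a filter, 5195 higher and 4251 lower without a minimum fold change, and 386 higher and 289 lower with limma on RPKM, whose pseudocount shrinks low genes. With a replicate block the counts were 1254 higher and 906 lower, and the calls against the clones moved by under 1.5 times, as they did with the number series as a factor. Leaving out a replicate number or a KPC1 library raised the genes outside all clone libraries to between 377 and 634 above and 293 and 601 below, since fewer libraries must be cleared, and 1895 were above and 1584 below within the second series. For genes outside in both cultures the range was 85 to 94 (40 with all libraries).

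With the 2000 genes of largest variance, r with E, H, K, M, N, T and V was 0.551, 0.828, 0.527, 0.539, 0.683, 0.628 and 0.727, and on log2 RPKM 0.941, 0.974, 0.919, 0.924, 0.963, 0.948 and 0.959. Without a replicate r was 0.956 to 0.958 for H, 0.884 to 0.895 for M, 0.923 to 0.936 for N and 0.932 to 0.936 for V. H was at 0.948 within the second and 0.955 within the first series. With libraries scaled within each series, 7 glycolytic genes were above and 12 interferon-stimulated genes below the clone means in the first (11 below with the scaling over all libraries). In the second, 17 glycolytic genes, 24 cell cycle genes and 13 chemokines and cytokines were above and 3 mitochondrially encoded genes below. Leaving out replicates, KPC1 libraries or clones gave 8 to 23 ISR genes above, 7 to 16 glycolytic genes, 5 to 10 genes of asparagine, aspartate and glutamine, and 4 to 10 chemokines and cytokines. Of 1067 values of named genes under alternatives, 23 lost and 0 gained an adjusted p under 0.1, and 3 turned in direction. These were Cdkn2a, between -0.11 and 0.042 without a replicate, and mt-Nd6, at 0.039 with limma on RPKM. Except where said, the cause was not tested.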
